A study of Homo sapiens with 12 samples.

Results

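The E2F transcription factors and the pocket proteins that restrain them were described gene by gene in 2 human prostate cancer lines exposed to pentamidine. The 10 members were chosen by name: E2F1, E2F2, E2F3, E2F4, E2F7, E2F8, their DNA-binding partner TFDP1, and the pocket protein genes RB1, RBL1 and RBL2. All 10 were found among the 32077 genes of the count table, and all 10 passed the filter on low counts in every comparison. Poly(A)-selected RNA was sequenced from cells labelled PC3 and DU145 after 48 hours in vehicle or in 2.5 μmol/L pentamidine, an antiprotozoal diamidine. The groups were PC3 with vehicle, PC3 with pentamidine, DU145 with vehicle and DU145 with pentamidine, each with 3 samples of the 1 line. The plan of the study asked how the transcriptome of each line responded to the drug. The labels name no engineered allele in any group.

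E2F proteins bind DNA as dimers with a DP protein such as TFDP1 and switch on the genes that a cell needs to copy its DNA. E2F1, E2F2 and E2F3 are the activators, E2F4 works mostly as a repressor together with the pocket proteins RBL1 and RBL2, and the atypical E2F7 and E2F8 repress without a DP partner. Pocket proteins hold E2Fs in check until cyclin-dependent kinases phosphorylate them, and with RBL1 or RBL2 and the MuvB proteins they form the DREAM complex, which silences cell-cycle genes in resting cells. Several E2F and pocket protein genes are themselves E2F targets, so that their mRNAs follow the cell cycle. DU145 is known for lacking a working RB1 protein, which is a background fact about the line and was not measured here.

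The libraries held 13514195 to 15131436 counts. The labels were set against marker genes. The keratins KRT8 and KRT18 were counted in every library, at 238 or more and 2125 or more counts, but the epithelial genes EPCAM and CDH1 had at most 2 and 10 counts in any library. Among markers of other cell types, the leukocyte gene PTPRC, the endothelial PECAM1 and the fibroblast DCN had at most 10 counts, the neuroendocrine CHGA at most 6 and COL1A1 at most 40, and the androgen target KLK3 had at most 2. TMPRSS2 was not analysed here. CTNNA1, which encodes alpha-catenin and which PC3 is known to have lost by deletion, was looked up after the values had been seen. It had 6003 to 8545 counts in the libraries labelled PC3, beside 5533 to 5932 in the libraries labelled DU145. KRT19, looked up at the same time, had at most 3. These values go against what is known of both lines, although the methods of the study state that the lines were authenticated, so PC3 and DU145 below name the libraries so labelled. The share of counts from mitochondria-encoded genes also moved with treatment, from 3.79% to 3.91% with vehicle to 2.66% to 2.76% with pentamidine in PC3 and from 4.41% to 4.66% to 1.97% to 2.07% in DU145. Its part in the results below was not tested.

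In the coordinates of the deposited table, which match GENCODE release 29 on GRCh38 for all members but RB1, the activators lie apart: E2F1 (ENSG00000101412) on chromosome 20 from 33675683 to 33686404, minus strand, E2F2 (ENSG00000007968) on chromosome 1 from 23506430 to 23531220, minus strand and E2F3 (ENSG00000112242) on chromosome 6 from 20401906 to 20493715, plus strand. E2F4 (ENSG00000205250) lies on chromosome 16 from 67192169 to 67198918, plus strand, and the atypical pair are E2F7 (ENSG00000165891) on chromosome 12 from 77021247 to 77065580, minus strand and E2F8 (ENSG00000129173) on chromosome 11 from 19224063 to 19241620, minus strand. TFDP1 (ENSG00000198176) lies on chromosome 13 from 113584721 to 113641470, plus strand, and the table gives RB1 (ENSG00000139687) on chromosome 13 from 48303751 to 48481986, plus strand. RBL1 (ENSG00000080839) lies on chromosome 20 from 36996349 to 37095995, minus strand, and RBL2 (ENSG00000103479) lies on chromosome 16 from 53433977 to 53491649, plus strand.

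The DNA just before the start of several members carries the E2F recognition word. RefSeq windows of 300 bases (GRCh38.p14), 250 before and 50 after an annotated start, were searched on both strands for 4 words of 8 letters, TTTGGCGC, TTTGGCGG, TTTCGCGC and TTTCGCGG. Of the 10 members, 8 had a window within 1000 bases of the start in the count table, and E2F8 and RB1 did not. Of these 8, 5 held a word (E2F1, E2F2, E2F3, TFDP1 and RBL1), or 62.5%, against 2.19% of all 35116 windows. E2F1, E2F2 and RBL1 held 2 words each, which 0.0683% of all windows did. The windows of E2F4, E2F7 and RBL2 held none of the 4 words, and other forms of the E2F site were not searched. The RBL2 window was set by a start 494 bases from that in the count table and did not cover the latter. The 100 bases before the start are shown for E2F1, E2F2, RBL1 and E2F3, because these are the members whose words lie closest to the start. They read 5′ to 3′ on the strand of the gene, and capitals mark the words.
E2F1, minus strand, chr20:33686386-33686485: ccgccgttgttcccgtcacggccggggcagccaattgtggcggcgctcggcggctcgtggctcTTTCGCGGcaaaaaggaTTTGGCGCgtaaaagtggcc
E2F2, minus strand, chr1:23531234-23531333: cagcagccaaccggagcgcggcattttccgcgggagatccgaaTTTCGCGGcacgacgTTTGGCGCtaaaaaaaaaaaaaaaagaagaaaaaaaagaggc
RBL1, minus strand, chr20:37095998-37096097: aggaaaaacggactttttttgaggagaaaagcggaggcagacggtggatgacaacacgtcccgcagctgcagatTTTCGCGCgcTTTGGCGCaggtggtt
E2F3, plus strand, chr6:20401779-20401878: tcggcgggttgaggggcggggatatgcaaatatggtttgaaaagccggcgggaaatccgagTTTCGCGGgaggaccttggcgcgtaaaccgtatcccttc
In E2F1 the words begin at -37 and -20 from the start, in E2F2 at -57 and -42, in RBL1 at -26 and -16, and in E2F3 at -39. TFDP1 held a single word, on the opposite strand, at -120. No 2 of these words overlap. Among the lists fixed for this family, 15 of the 31 windows of G1/S E2F targets held a word, and 4 of the 27 of G2/M DREAM targets. A match describes these letters and is not a measured binding site.

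In PC3 cells, pentamidine lowered 7 of the 10 members and raised none. E2F2 and E2F8 fell by 50.6% and 50.8%, E2F1 fell by 37.0%, RBL1 fell by 36.1%, E2F7 fell by 34.9%, TFDP1 fell by 27.5% and E2F3 fell by 13.1%. E2F4, RB1 and RBL2 did not pass the test. Across the 13861 genes tested, 21.7% were called lower and 21.7% higher (edgeR quasi-likelihood test, Benjamini-Hochberg adjusted p below 0.05), and the median log2 fold change was 0.0046 over all genes and -0.54 over the members. The threshold of the study also asks for an absolute log2 fold change above 1, which E2F2 and E2F8 passed and 1.31% of all genes did in the lower direction. In bulk RNA, fewer cells that transcribe a gene and less mRNA per cell cannot be told apart.

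**Figure D1:**
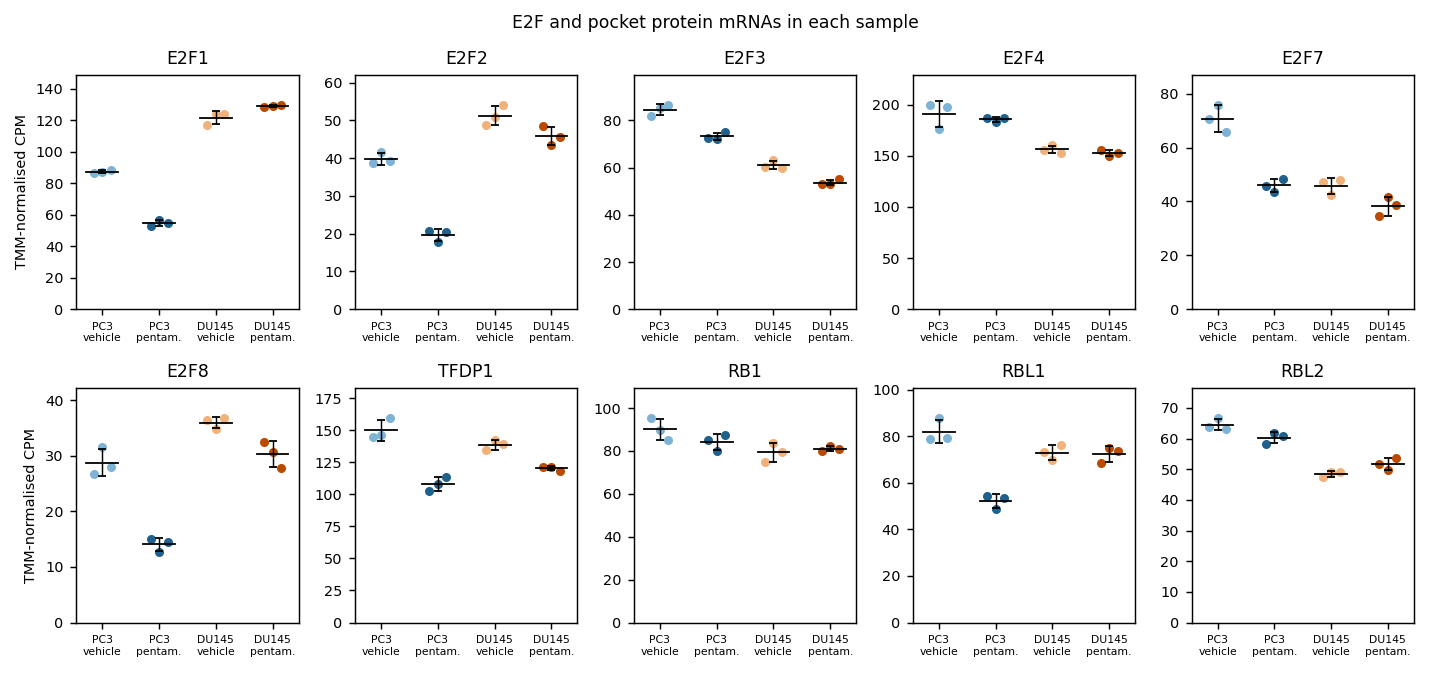
Each panel plots 1 member in CPM, with 1 point per sample, a line at the mean of 3 samples and a bar of 1 SD on either side. In PC3 the pentamidine samples of E2F1, E2F2, E2F7, E2F8, TFDP1 and RBL1 lie well below the vehicle samples, whereas the DU145 groups lie close together.

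Levels are given as CPM, the count of a gene divided by the TMM-scaled library size and put on a common scale. E2F1, the activator that starts S-phase transcription and can also trigger apoptosis, was at 86.2, 87.3 and 88.4 CPM in the PC3 vehicle samples and at 52.8, 56.6 and 54.9 CPM with pentamidine. The groups did not overlap, and each varied by only a few CPM. The log2 fold change of E2F1 was -0.67 ± 0.06 (SE, n = 3 per group; edgeR adjusted p = 8.1e-08).

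E2F2, an activator of the same class, was at 38.8, 41.7 and 39.2 CPM with vehicle and at 20.6, 17.8 and 20.5 CPM with pentamidine in PC3. Every treated sample lay below every vehicle sample, with a log2 fold change of -1.02 ± 0.08 (edgeR adjusted p = 2.7e-08). E2F3, the remaining activator, changed least among the called members: its vehicle samples ranged from 81.9 to 86.4 CPM and its treated samples from 72.1 to 75.1 CPM, with a log2 fold change of -0.20 ± 0.06 (edgeR adjusted p = 0.0082). Of all genes tested, 56.3% changed by more than E2F3, 12.6% by more than E2F1 and 4.82% by more than E2F2, in either direction.

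E2F8, an atypical repressor of E2F targets late in S phase, was at 26.7, 31.5 and 28 CPM with vehicle and at 15.1, 12.7 and 14.5 CPM with pentamidine in PC3. The highest treated sample was thus far below the lowest vehicle sample, and the log2 fold change was -1.02 ± 0.10 (edgeR adjusted p = 2.5e-07). E2F7, its closest relative, was at 70.5, 75.7 and 65.9 CPM with vehicle and at 45.9, 43.5 and 48.4 CPM with pentamidine, a log2 fold change of -0.62 ± 0.07 (edgeR adjusted p = 1.5e-06). The mRNAs of activators and atypical repressors thus both fell in this line. E2F2 and E2F8 lay close to the study's threshold, which each passed in 11 of 13 alternative analyses and missed without PC3 vehicle replicate 2 or PC3 pentamidine replicate 2; over these analyses E2F2 ranged from -1.05 to -0.95 and E2F8 from -1.08 to -0.95.

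E2F4, the repressor that is present throughout the cell cycle, ranged from 177 to 199 CPM with vehicle and from 183 to 187 CPM with pentamidine in PC3. The groups overlapped, and the log2 fold change was -0.04 (95% interval -0.15 to 0.07; edgeR adjusted p = 0.59). TFDP1, the DP partner of the typical E2Fs, ranged from 144 to 159 CPM with vehicle and from 103 to 114 CPM with pentamidine. TFDP1 thus fell without overlap, by 0.46 ± 0.06 on the log2 scale (edgeR adjusted p = 5.7e-06).

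Among the pocket proteins, only RBL1 passed the test in PC3. RBL1, itself an E2F target gene in cycling cells, was at 78.7, 87.6 and 79.4 CPM with vehicle and at 54.2, 48.6 and 53.6 CPM with pentamidine, a log2 fold change of -0.65 ± 0.07 (edgeR adjusted p = 6.6e-07). RB1, the retinoblastoma tumour suppressor, was at 95.2, 89.7 and 85.2 CPM with vehicle and at 85.0, 79.9 and 87.4 CPM with pentamidine. These groups overlapped, and the log2 fold change of RB1 was -0.09 (95% interval -0.22 to 0.03; edgeR adjusted p = 0.22). RBL2, the pocket protein of resting cells, was at 63.8, 66.5 and 63.1 CPM with vehicle and at 58.2, 61.9 and 60.9 CPM with pentamidine, a log2 fold change of -0.09 (95% interval -0.22 to 0.04; edgeR adjusted p = 0.24). The RBL2 groups did not overlap, although the change was small against the spread of the fit. Of the 10 members, 8 had groups that did not overlap in PC3, as did 52.1% of all genes tested.

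**Figure D2:**
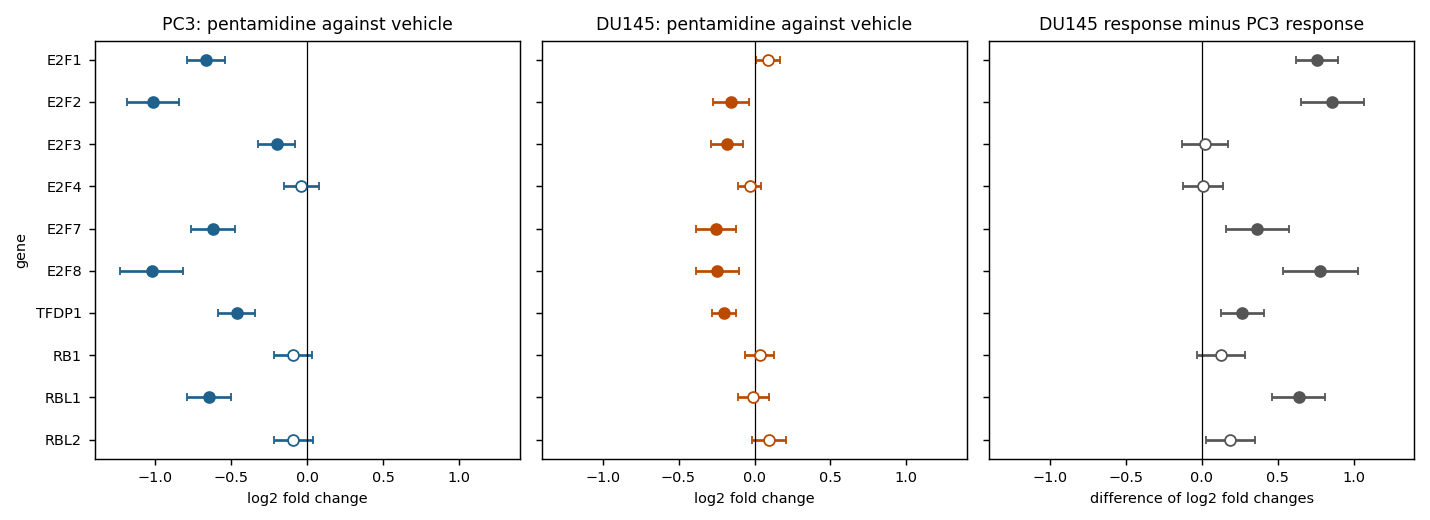
Points show the log2 fold change of each member, pentamidine against vehicle, in PC3 and in DU145, and at the right the DU145 change minus the PC3 change, with 95% intervals from 3 samples per group. Filled points had an adjusted p below 0.05: 7 members in PC3, 5 in DU145 and 6 for the difference.

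In DU145 cells, 5 of the 10 members fell, none rose, and the changes were small. E2F7 fell by 16.1%, E2F8 by 15.6%, TFDP1 by 12.8%, E2F3 by 11.8% and E2F2 by 10.3%. E2F1, E2F4, RB1, RBL1 and RBL2 did not pass the test. Of the 14313 genes tested in this line, 16.8% were called lower and 17.2% higher, and the median log2 fold change was 0.0085 over all genes and -0.09 over the members. No member passed the threshold of the study, which 0.657% of all genes passed in the lower direction.

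E2F1 was at 117, 124 and 124 CPM in the DU145 vehicle samples and at 128, 129 and 130 CPM with pentamidine. Every treated sample was thus above every vehicle sample, with a log2 fold change of 0.09 ± 0.04 (edgeR adjusted p = 0.079), which missed the threshold and passed it when libraries were scaled by their totals alone (0.14, adjusted p = 0.0051). E2F2 was at 48.9, 51.0 and 54.1 CPM with vehicle and at 48.5, 43.6 and 45.7 CPM with pentamidine, so that the groups came within 1 CPM of each other. Its log2 fold change of -0.16 ± 0.06 (edgeR adjusted p = 0.034) was no longer called in 7 of 13 alternative analyses, with adjusted p-values up to 0.20. The call was lost without DU145 vehicle replicate 2 (-0.16) or 3 (-0.12) and without DU145 pentamidine replicate 2 (-0.13) or 3 (-0.16). E2F3 ranged from 59.98 to 63.0 CPM with vehicle and from 52.9 to 55.1 CPM with pentamidine, without overlap. Its log2 fold change was -0.18 ± 0.05 (edgeR adjusted p = 0.0063), and scaling by totals alone took it to -0.13 (adjusted p = 0.052).

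The atypical repressors moved most in DU145. E2F7 was at 47.1, 42.3 and 47.9 CPM with vehicle and at 34.5, 41.5 and 38.7 CPM with pentamidine, a log2 fold change of -0.25 ± 0.07 (edgeR adjusted p = 0.0019). E2F8 was at 36.4, 34.8 and 36.7 CPM with vehicle and at 32.4, 30.6 and 27.7 CPM with pentamidine, a log2 fold change of -0.24 ± 0.07 (edgeR adjusted p = 0.0046). The lowest treated sample weighed on the E2F8 call: without DU145 pentamidine replicate 3 its log2 fold change was -0.19 (adjusted p = 0.053), and the number of members called lower was 3 in place of 5. TFDP1 ranged from 135 to 142 CPM with vehicle and from 118 to 122 CPM with pentamidine, a log2 fold change of -0.20 ± 0.04 (edgeR adjusted p = 6.7e-05).

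E2F4 and the pocket proteins changed little in DU145. E2F4 ranged from 153 to 160 CPM with vehicle and from 149 to 155 CPM with pentamidine, and the groups overlapped. RB1 mRNA was present in DU145, at 74.7, 83.6 and 79.7 CPM with vehicle and at 79.8, 82.2 and 81.0 CPM with pentamidine. Its log2 fold change was 0.03 (95% interval -0.06 to 0.13; edgeR adjusted p = 0.63), and a count of mRNA does not tell whether a working protein is made. RBL1 was at 73.0, 69.7 and 76.0 CPM with vehicle and at 68.3, 74.9 and 73.6 CPM with pentamidine, with a log2 fold change of -0.01 (95% interval -0.11 to 0.09; edgeR adjusted p = 0.92). The sign of this RBL1 value turned under some alternatives. RBL2 was at 47.4, 49.1 and 49.0 CPM with vehicle and at 51.8, 49.8 and 53.5 CPM with pentamidine, a log2 fold change of 0.10 (95% interval -0.02 to 0.21; edgeR adjusted p = 0.20) that was called when libraries were scaled by their totals alone (0.15, adjusted p = 0.041). Of the 10 members, 7 had groups that did not overlap in DU145, beside 44.0% of all genes tested.

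The difference between the lines was tested directly, as the interaction of treatment and cell line over all 12 samples. For 6 members the log2 fold change was higher in DU145 than in PC3, and for none was it lower, where 10.3% of the 15226 genes tested were called in the higher direction and 10.2% in the lower. The difference was 0.86 ± 0.10 for E2F2 (edgeR adjusted p = 2.7e-07), 0.78 ± 0.12 for E2F8 (edgeR adjusted p = 1.8e-05) and 0.76 ± 0.07 for E2F1 (edgeR adjusted p = 2.0e-09). It was 0.64 ± 0.08 for RBL1 (edgeR adjusted p = 1.9e-06), 0.37 ± 0.10 for E2F7 (edgeR adjusted p = 0.010) and 0.27 ± 0.07 for TFDP1 (edgeR adjusted p = 0.0058). For E2F7 the difference was 0.30 without DU145 pentamidine replicate 2 (adjusted p = 0.053). E2F3 had a difference of 0.02 (95% interval -0.13 to 0.17) and E2F4 of 0.01 (95% interval -0.13 to 0.14). RB1 had a difference of 0.13 (95% interval -0.03 to 0.29) and RBL2 of 0.19 (95% interval 0.03 to 0.35; edgeR adjusted p = 0.095), which passed the test when libraries were scaled by their totals alone (0.26, adjusted p = 0.020).

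With vehicle, 8 members differed between the lines, where 65.3% of the 14394 genes tested did, 33.8% higher in DU145 and 31.5% lower. E2F1, E2F2 and E2F8 were higher in DU145, by 41.6%, 30.8% and 27.1%. E2F7, E2F3, RBL2, E2F4 and RB1 were lower in DU145, by 34.2%, 26.6%, 23.5%, 16.8% and 10.4%. All 10 members had groups that did not overlap between the untreated lines, as did 69.1% of all genes. The RB1 difference of -0.16 on the log2 scale (edgeR adjusted p = 0.029) was not called with DESeq2 (adjusted p = 0.058), nor without PC3 vehicle replicate 1 (-0.13), PC3 vehicle replicate 2 (-0.17), DU145 vehicle replicate 1 (-0.12) or DU145 vehicle replicate 3 (-0.16), with adjusted p-values of 0.051 to 0.15. RBL1 (-0.14, edgeR adjusted p = 0.052) and TFDP1 (-0.09, edgeR adjusted p = 0.16) were not called, though RBL1 was called without PC3 vehicle replicate 1 (-0.18) or 3 (-0.18), under RLE (adjusted p = 0.046), scaling by totals alone (adjusted p = 0.0050), no filter (adjusted p = 0.035) and all 12 samples in 1 fit (adjusted p = 0.014). TFDP1 was called without PC3 vehicle replicate 1 (-0.13), under scaling by totals alone (adjusted p = 0.0090) and with all 12 samples in 1 fit (adjusted p = 0.042). Each group holds samples of a single line, so these are differences between those lines only.

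Levels of different genes were compared per kilobase of exon, with the union of each gene's exons as its length. In PC3 vehicle samples the order was E2F4 (53.4 ± 3.5 CPM per kilobase, SD), TFDP1 (40.0 ± 2.2), E2F1 (34.9 ± 0.43), E2F3 (16.4 ± 0.46), RB1 (13.95 ± 0.77), RBL1 (13.8 ± 0.84), E2F7 (11.2 ± 0.78), RBL2 (8.81 ± 0.25), E2F2 (7.31 ± 0.29) and E2F8 (6.94 ± 0.60). Of the neighbours in that order, RB1 and RBL1 overlapped in range, as did E2F2 and E2F8. In DU145 vehicle samples E2F1 came first (48.5 ± 1.7), before E2F4 (43.6 ± 1.0) and TFDP1 (37.0 ± 1.0), and RB1 (12.3 ± 0.69), RBL1 (12.2 ± 0.53) and E2F3 (11.8 ± 0.33) overlapped with their neighbours. RBL2 was last there, at 6.63 ± 0.13 CPM per kilobase. With pentamidine, E2F1 stood behind E2F4 and TFDP1 in PC3, at 21.9 ± 0.76 CPM per kilobase, and RBL1 (8.76 ± 0.52) overlapped with RBL2 (8.24 ± 0.26). In DU145 with pentamidine E2F1 was again first, at 51.5 ± 0.30, and E2F7 was last at 6.07 ± 0.56. These orders depend on the length given to each gene. With the longest transcript as length, E2F4 came first in DU145 in both groups, at 59.8 with vehicle and 58.3 with pentamidine, E2F1 stood below TFDP1 with vehicle (48.5 against 52.3) and above it with pentamidine (51.5 against 45.5), E2F7 was last in both DU145 groups, and RBL2 (12.3) stood above RBL1 (9.17) in PC3 with pentamidine.

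The make-up of the 6 E2F members differed accordingly. E2F5 and E2F6 were counted too, but they are left out of the shares given here. Of the summed level of the 6 E2F mRNAs per kilobase, the activators E2F1 to E2F3 made up 45.0% ± 1.1 in PC3 with vehicle and 38.8% ± 0.66 with pentamidine (SD, n = 3). E2F4 made up 41.0% ± 2.2 and 50.7% ± 0.42, and the atypical pair E2F7 and E2F8 13.98% ± 1.2 and 10.5% ± 0.49. In DU145 the activators made up 53.9% ± 0.89 with vehicle and 55.7% ± 0.33 with pentamidine, E2F4 33.7% ± 0.84 and 33.7% ± 0.46, and the atypical pair 12.3% ± 0.68 and 10.6% ± 0.50. These shares are descriptions and depend on the exon length given to each gene: with the longest transcript as length, E2F4 (47.5%) exceeded the activators (39.2%) in PC3 with vehicle too.

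**Figure D3:**
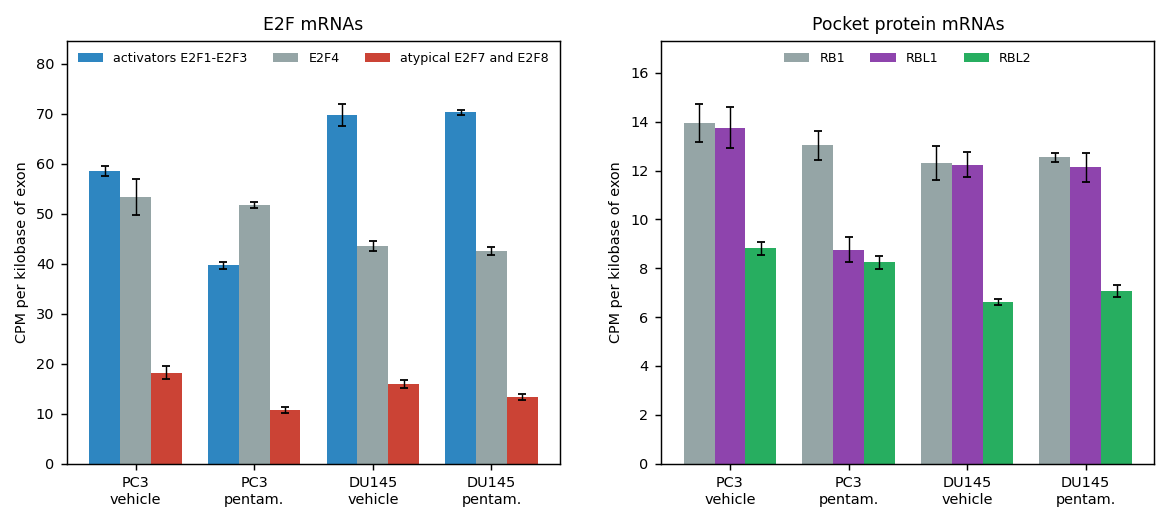
Bars give the level of each class of E2F mRNA, left, and of each pocket protein mRNA, right, in CPM per kilobase of exon, as the mean of 3 samples with 1 SD. In PC3 the activator bar falls from 58.6 to 39.7 and the RBL1 bar from 13.8 to 8.76 with pentamidine, while in DU145 the activator bars stand at 69.7 and 70.3.

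Among the pocket proteins, RBL1 made up 37.7% ± 1.5 of their summed level per kilobase in PC3 with vehicle and 29.1% ± 0.98 with pentamidine, and 39.3% ± 1.7 and 38.2% ± 1.0 in DU145. The ratio of RBL2 to RBL1 counts needs no scaling between samples. In PC3 it was 0.811, 0.760 and 0.796 with vehicle and 1.07, 1.27 and 1.13 with pentamidine, so that every treated sample lay above every vehicle sample. The genes differ in exon length, so a ratio of 1 in counts marks no equal level. The log2 ratio rose by 0.55, and the 2-sided exact permutation p was 0.10, the smallest that 3 against 3 samples can give. In DU145 the ratio was 0.650, 0.705 and 0.645 with vehicle and 0.758, 0.665 and 0.728 with pentamidine, which overlapped (difference in log2 ratio 0.10, exact permutation p = 0.20). RBL2 shares 610 bases, or 8.33% of its exon length, with AKTIP on the opposite strand, and since the strand setting of the counting is not given in the sources used here, reads of AKTIP cannot be told apart there.

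**Figure D4:**
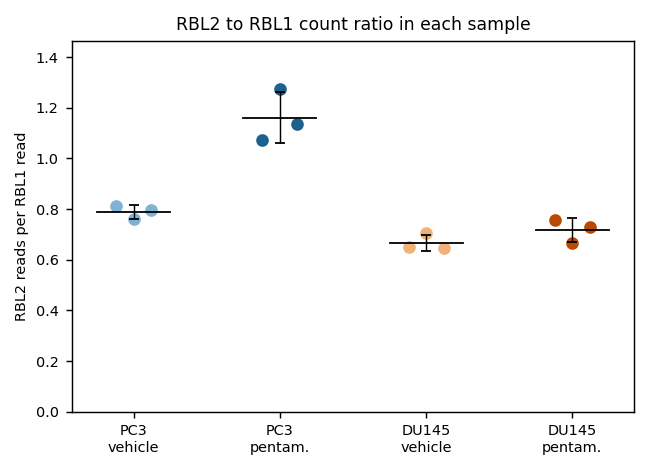
Points give the reads of RBL2 per read of RBL1 in each of the 12 samples, with the mean and 1 SD of each group. The 3 PC3 pentamidine samples lie above 1, and the other 9 samples lie below it.

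The remaining E2F and DP genes in the table, E2F5, E2F6 and TFDP2, were not called in either line with pentamidine. Their log2 fold changes ran from -0.09 to 0.18 in PC3 and from -0.18 to 0.06 in DU145. TFDP2, another DP partner, was higher in DU145 than in PC3 with vehicle (25.3 against 17.3 CPM; log2 fold change 0.58, edgeR adjusted p = 7.6e-05). TFDP3 was not analysed here.

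The textbook targets of the activator E2Fs at the start of S phase fell in PC3. Of 44 such genes, 43 were called lower and none higher in PC3, beside 21.7% of all genes in each direction. Their median log2 fold change was -0.71, and 6 passed the threshold of the study, which 1.31% of all genes did in the lower direction. MCM10, which loads replication proteins at origins, fell from 74.2 to 31.0 CPM (log2 fold change -1.26), and FEN1, a nuclease of lagging-strand synthesis, from 139 to 58.2 CPM (-1.25). CLSPN, an adaptor of the replication checkpoint (-1.23), ORC1, a subunit of the origin recognition complex (-1.22), and GINS1, a part of the replicative helicase (-1.14), followed. In DU145, 19 of the 44 were lower and 3 higher, beside 16.8% and 17.2% of all genes, with a median log2 fold change of -0.10. MCM10 was at 97.9 and 70.9 CPM there (-0.46), FEN1 at 207 and 155 CPM (-0.41), CLSPN changed by -0.41, GINS1 by -0.32 and ORC1 by -0.25. The interaction was called for 42 of the 44, in each case with the higher log2 fold change in DU145, beside 10.3% of all genes. The largest differences were those of ORC1 (0.96), UHRF1, a reader of methylated DNA (0.88), and MCM4, a helicase subunit (0.87).

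Genes of mitosis that the DREAM complex silences in resting cells fell in PC3 as well, though by less. Of 35 such genes, 34 were called lower and none higher, beside 21.7% of all genes in each direction. Their median log2 fold change was -0.54, and none passed the threshold of the study, which 1.31% of all genes did in the lower direction. ANLN, a scaffold of the cytokinetic ring, fell from 301 to 155 CPM (-0.96), ECT2, which activates RhoA for cytokinesis, by 0.85 on the log2 scale, the proliferation marker MKI67 by 0.78, the spindle protein ASPM by 0.76 and the checkpoint kinase TTK by 0.75. In DU145, 15 of the 35 were lower and 3 higher, beside 16.8% and 17.2% of all genes, with a median of -0.09. CKAP2L, a spindle protein, changed by -0.61 there, while CENPA, the centromeric histone, rose from 32.3 to 40.7 CPM (0.34). The interaction was called for 32 of the 35, in each case with the higher log2 fold change in DU145, beside 10.3% of all genes. AURKB, a mitotic kinase, was at 0.76.

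**Figure D5:**
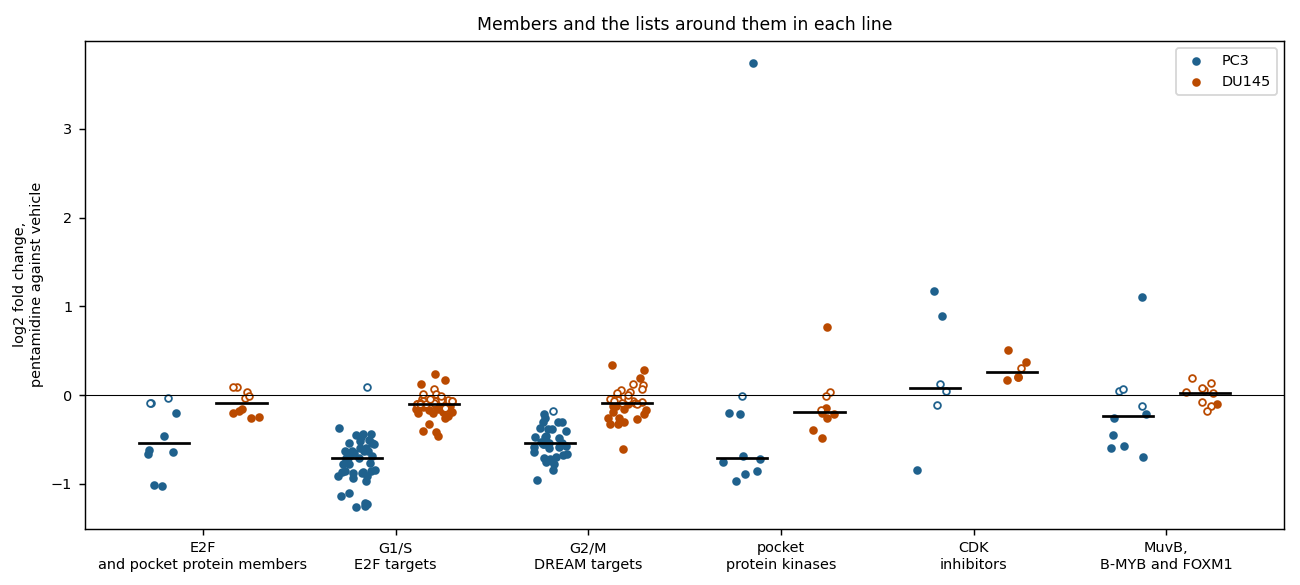
Points show the log2 fold change of each tested gene, pentamidine against vehicle, in 6 lists, blue for PC3 and orange for DU145. Filled points had an adjusted p below 0.05 and bars mark the medians, which in PC3 were -0.54 for the members, -0.71 for G1/S E2F targets and -0.54 for G2/M DREAM targets, and in DU145 about -0.09, -0.10 and -0.09.

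Of 10 cyclins, kinases and activators that act on pocket proteins, 8 were lower and 1 higher in PC3, beside 21.7% of all genes in each direction, with a median log2 fold change of -0.71. CDC25A, the phosphatase that activates CDK2, fell from 37.4 to 19.0 CPM (-0.97, edgeR adjusted p = 2.6e-08) and CCNE2, a partner of CDK2, from 24.4 to 13.1 CPM (-0.89, edgeR adjusted p = 1.4e-06). CCND2, a D-type cyclin and the 1 gene that rose, was near the limit of counting with vehicle, at 0.155 CPM, and at 2.13 CPM with pentamidine (edgeR adjusted p = 1.2e-05). In DU145, 6 of the 10 were lower and 1 higher, beside 16.8% and 17.2% of all genes. CCND2 rose there too, from 18.0 to 30.5 CPM (0.77, edgeR adjusted p = 2.3e-11), while CCND3 fell from 51.0 to 36.5 CPM (-0.48) and CDC25A from 77.2 to 58.3 CPM (-0.40).

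Among the inhibitors of those kinases, 2 of the 6 tested were higher and 1 lower in PC3, where 21.7% of all genes were called in each direction, and in DU145 5 of 6 were higher and none lower, where 17.2% of all genes were higher. The DU145 count was 3 without DU145 vehicle replicate 3 or DU145 pentamidine replicate 2, and 3 or 4 whichever library was left out. CDKN2B, an inhibitor of CDK4 and CDK6, rose from 11.3 to 25.4 CPM in PC3 (1.17, edgeR adjusted p = 2.9e-08) and from 4.18 to 5.93 CPM in DU145 (0.51, edgeR adjusted p = 0.018). The DU145 call of CDKN2B was lost without DU145 vehicle replicate 2 (0.41) or DU145 pentamidine replicate 1 (0.39) and with DESeq2 (adjusted p = 0.10). CDKN1A, an inhibitor of CDK2 that is also a p53 target, rose from 54.8 to 101 CPM in PC3 (0.89, edgeR adjusted p = 1.9e-08) and from 107.5 to 139 CPM in DU145 (0.37, edgeR adjusted p = 1.8e-10). CDKN2C, an inhibitor of CDK4 and CDK6, fell from 81.1 to 45.1 CPM in PC3 (-0.84, edgeR adjusted p = 4.4e-09), with an interaction of 1.02. CDKN2A, which encodes a further inhibitor of CDK4 and CDK6, rose in DU145 (0.21, edgeR adjusted p = 4.4e-05).

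Partners that act with RBL1, RBL2 and RB1 on chromatin were counted next. A list of 10 genes held those of the MuvB complex with MYBL1, MYBL2 (B-MYB), FOXM1, DYRK1A and DYRK1B. Of these 10, 6 were lower and 1 higher in PC3, beside 21.7% of all genes in each direction. In DU145 1 of the 10 was lower, beside 16.8% of all genes, with 2 lower without DU145 vehicle replicate 1 and 0 without DU145 pentamidine replicate 1. MYBL2, the B-MYB that replaces the pocket proteins on MuvB in S phase, fell from 250 to 154 CPM in PC3 (-0.69) and from 378 to 352 CPM in DU145 (-0.10, edgeR adjusted p = 0.012), with an interaction of 0.60. The DU145 call of MYBL2 was lost without DU145 pentamidine replicate 1 (-0.09, adjusted p = 0.052), under scaling by totals alone (-0.05) and with all 12 samples in 1 fit (adjusted p = 0.074). LIN9, a core MuvB subunit, fell from 20.8 to 13.8 CPM in PC3 (-0.59). LIN37, another subunit, was called higher in PC3 from only 0.502 to 1.08 CPM (edgeR adjusted p = 0.028). That call was lost without PC3 vehicle replicate 2 or 3 or any 1 of the PC3 pentamidine replicates (edgeR adjusted p-values of 0.056 to 0.088). It was also lost with DESeq2 (adjusted p = 0.15), and in edgeR with no filter (adjusted p = 0.066) and with the replicate block (adjusted p = 0.052). Of the RB corepressors, 4 of 11 were lower and 2 higher in PC3, led by the histone methyltransferase SUV39H1 (-0.48) and the remodelling ATPase SMARCA4 (-0.47), and 2 of 10 were lower and 1 higher in DU145. Of all genes, 21.7% were lower in PC3 and 17.2% higher in DU145. The 2 of 11 higher in PC3 and the 2 of 10 lower in DU145 were near the shares of all genes, 21.7% and 16.8%. The first of these 2 counts was 1 without PC3 pentamidine replicate 2. The second was 1 without DU145 vehicle replicate 2, DU145 vehicle replicate 3 or DU145 pentamidine replicate 3. Over the analyses that leave out 1 sample, both counts ran from 1 to 3.

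Of 6 genes that degrade E2F proteins or their regulators, 5 were lower in PC3, beside 21.7% of all genes, and 3 without PC3 pentamidine replicate 1. In DU145, 4 of 6 were lower and 1 higher, beside 16.8% and 17.2% of all genes. SKP2, the ubiquitin ligase subunit that targets CDKN1B and E2F1, fell from 67.3 to 35.9 CPM in PC3 (-0.90, edgeR adjusted p = 8.5e-09) and from 78.3 to 68.1 CPM in DU145 (-0.20, edgeR adjusted p = 0.0012). CCNF, the cyclin F that marks activator E2Fs for degradation, fell by 0.69 and 0.30 on the log2 scale in PC3 and DU145. Of the apoptosis genes that E2F1 can activate, 2 of 9 were higher and 4 lower in PC3, where 21.7% of all genes were called in each direction, so that the count of higher genes was near that share. In DU145 4 of 10 were higher and 4 lower, beside 17.2% and 16.8% of all genes. BBC3, which encodes PUMA and is also a p53 target, rose from 3.32 to 9.55 CPM in PC3 (1.52, edgeR adjusted p = 6.9e-07) and from 2.05 to 7.03 CPM in DU145 (1.78, edgeR adjusted p = 2.2e-10). TP73, a p53 relative, fell from 27.4 to 14.3 CPM in PC3 (-0.93, edgeR adjusted p = 7.2e-07), with an interaction of 1.07.

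The genes whose pattern over the 12 samples was most like that of the members that moved most were looked up among 10631 genes with a mean of at least 5 CPM. E2F8 was closest to E2F2 (Pearson r of log2 CPM 0.989), the nuclear export factor CSE1L (0.988) and RRM1, the large subunit of ribonucleotide reductase (0.986). E2F2 was closest to the polycomb gene CBX2 (0.993), E2F8 and MCM4 (0.989). E2F7 was closest to the centromere gene CENPI (0.984), LRRC8B (0.977) and the coactivator NCOA3 (0.972). These values describe 12 samples that fall into 4 groups, and the points share groups, libraries and scaling.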

How the data were processed

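Per the methods of the study, Oligo(dT)-selected mRNA was sequenced, reads were aligned with HISAT2 and genes tested with the DESeq package; the submitters' processing notes name HISAT2 2.1.0 and DESeq 1.18.1. The table used holds whole-number read counts per gene, deposited by the authors without normalization. A table named for FPKM was not used. Its values were compared with CPM computed from the counts, for gene names that were not repeated. Of the 384876 values compared, 100% were equal within 1 part in 100000. The authors' own comparison tables hold fold changes and p-values and were not used. The count table held 33595 entries with an Ensembl identifier, besides 44 broken lines that were left out. Repeated entries of the same name and counts were reduced to 1, leaving 32077 genes.

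Counts were tested with edgeR 4.0.16 in R 4.3.3 (glmQLFit and glmQLFTest, TMM, filterByExpr at a minimum count of 10, Benjamini-Hochberg adjustment over all genes tested), in 6 samples per comparison and 12 for the interaction. Replicates came from the labels, which do not say whether they were separate cultures, so p-values measure the spread between these samples. Exon lengths came from GENCODE release 29. All members but RB1 had identical coordinates there, and RB1 was matched by its identifier. In simulated data the PC3 test recovered 87 of 100 genes changed by 0.6 on the log2 scale and the DU145 test 99 of 100. Far fewer genes were called there than in the data (200 for PC3 and 209 for DU145). The adjusted p cut-off was thus stricter in the simulation than in the tests reported. Alternatives were RLE, scaling by library size alone, no filter, at least 10 counts in every sample, DESeq2 1.42.0, a replicate block, all 12 samples in 1 fit, the longest transcript as length, and leaving out each sample.

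The members and lists were chosen with earlier results of these data known. All members were named. From the other lists, called genes whose higher group had no sample under 10 counts were ranked by size of change, and names came from the first 5 of the G1/S and G2/M lists, 3 of the kinases, inhibitors and MuvB genes, and 2 of the rest.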

Additional observations from a re-analysis of the deposited data

Results flagged for a closer look

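Among the members, 6 had a response to pentamidine that differed between the lines by the test of the difference itself. The DU145 log2 fold change minus that of PC3 was 0.86 for E2F2, 0.78 for E2F8, 0.76 for E2F1, 0.64 for RBL1, 0.37 for E2F7 and 0.27 for TFDP1 (edgeR's quasi-likelihood test, all with a Benjamini-Hochberg adjusted p of at most 0.010). E2F1 was the 1 of these with opposite signs in the lines, -0.67 in PC3 and 0.09 in DU145, although the DU145 value did not pass the test on its own. The share of mitochondria-encoded counts was lower with pentamidine in both lines, and its part in these differences was not tested.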

How the results depend on the processing

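Of 570 values of members under the alternatives, 528 kept their direction and their side of the threshold, 12 newly passed it, 15 no longer did and 15 changed sign, and the cause of these changes was not tested. Every sign change was of a value that had not passed the test. Scaling by library size alone gave 2 members higher and 3 lower in DU145, and turned E2F4 to 0.020 and RBL1 to 0.042. It also gave 8 G2/M DREAM targets higher in DU145 (3 in the main analysis) and 5 higher in DU145 than in PC3 with vehicle (9 in the main analysis). DESeq2 called 1491 genes higher in DU145, against 2459. The E2F4 interaction, 0.0084, turned to -0.0072 under RLE, -0.0041 with no filter and -0.0099 with DESeq2. Over the analyses that leave out 1 sample, the E2F4 interaction ran from -0.028 to 0.058, the E2F3 interaction from -0.00022 to 0.039, RBL1 in DU145 from -0.041 to 0.027, RB1 in DU145 from -0.013 to 0.073, the members called lower in DU145 from 3 to 5, and the PC3 difference in log2 ratio of RBL2 to RBL1 from 0.49 to 0.61.

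With the longest transcript as gene length, activators made up 39.2% and 33.1% of the level of the E2F members in PC3 with vehicle and pentamidine. In DU145 the activators made up 47.7% and 49.3%. E2F4 made up 47.5% and 57.2% in PC3 and 40.1% and 40.2% in DU145, and the atypical pair 9.67% in PC3 with pentamidine. RBL1 then made up 31.1% and 23.5% of the pocket level in PC3 and 32.7% and 31.7% in DU145, and RBL2 28.4% and 31.5% in PC3 and 25.2% and 26.3% in DU145.

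Same-numbered samples did not deviate together in expression (correlations of -0.073 to 0.039). Samples prepared together without a shared effect would look the same, so these values cannot tell whether the numbers mark pairs. With the replicate number as a block, 7 members were lower in PC3, 5 in DU145 and 6 differed in the interaction, as without it, and 2818 genes rose and 2781 fell in PC3, against 3003 and 3007. In simulated data of this depth, the interaction test recovered 77 of 100 differences of 0.6 on the log2 scale. Smaller differences can be missed. The test called 182 genes in the simulation, against 1566 higher and 1546 lower in the data. The adjusted p cut-off was thus stricter in the simulation, and this recovery need not hold for the data.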
